A study of Homo sapiens with 18 samples.

Results

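The enzymes that write, copy and remove DNA methylation and the core of Polycomb repressive complex 2 were followed in 2 medulloblastoma cell lines carrying short hairpin RNAs against EYA2. The group was set by name and holds 10 genes of the 25369 in the count table: DNMT1 and UHRF1, DNMT3A and DNMT3B, TET1, TET2 and TET3, and EZH1, EZH2 and SUZ12. All 10 passed the filter on low counts, as did 14850 genes in all. EYA2 encodes a transcriptional coactivator with phosphatase activity that works with homeodomain proteins. D425 and D458 are cell lines of Group 3 medulloblastoma, a cerebellar tumour of childhood that often carries high MYC. D425 cells received EYA2 shRNA#6 (hairpin 6) or EYA2 shRNA#8 (hairpin 8), D458 cells received EYA2 shRNA#7 (hairpin 7) or EYA2 shRNA#8, and the controls of each line received a non-targeting hairpin, with 3 independent biological replicates in each of the 6 groups. Cells of every group, controls included, were selected in 1 µg/mL puromycin for 48 h, sorted for the brightest 10% of the zsGreen reporter and given 24 h of recovery, so that all values come from the strongest expressers of a hairpin vector. Polyadenylated RNA was sequenced, and the values below are counts scaled to library size by TMM (CPM), with mean ± SD over 3 libraries.

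Methyl groups on cytosine in CpG dinucleotides are placed at new sites by DNMT3A and DNMT3B. DNMT1 copies them onto the new strand after replication, guided by UHRF1, which binds hemimethylated DNA. The TET dioxygenases oxidise 5-methylcytosine to 5-hydroxymethylcytosine and further forms as a step toward its removal. EZH2 and its paralogue EZH1 are alternative catalytic subunits of Polycomb repressive complex 2 (PRC2), which methylates histone H3 at lysine 27, and SUZ12 is the scaffold both need. Group 3 medulloblastoma is known for recurrent mutation of enzymes that act on this histone mark, KDM6A among them, and for high EZH2. Transcripts of DNMT1, UHRF1 and EZH2 are also known to be most abundant in cycling cells and to be driven by E2F factors.

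Library totals lay between 21260369 and 31552051 counts. EYA2 averaged 11.9 ± 2.87 CPM with hairpin 6 and 14.1 ± 3.01 CPM with hairpin 8 in D425, against 27.9 ± 14.3 CPM in D425 controls. Hairpin 8 overlapped those controls, with a highest library of 17.5 CPM beside a lowest control of 15.5 CPM. Both D425 falls of EYA2 passed (-1.24 and -0.98, adjusted p = 0.00693 and 0.0170) and were lost without replicate 2 (adjusted p = 0.154 and 0.168). Other genes on chromosome 20, where EYA2 lies, had medians of -0.28 and -0.32 among those averaging at least 8 CPM. In D458 EYA2 averaged 48.1 ± 3.43 CPM with hairpin 7 and 20.3 ± 2.77 CPM with hairpin 8, against 70.3 ± 3.16 CPM in D458 controls, and the hairpin 7 difference (log2 fold change -0.55 ± 0.26 SE, adjusted p = 0.137) did not pass the threshold of 0.05, although all 3 hairpin 7 libraries lay below all 3 controls. Immune markers summed to at most 1.27 CPM in a library. Group 3 markers summed to 4302 to 5178 CPM in D425 hairpin libraries, against 5457 to 6269 CPM in D425 controls, and to 5298 to 6481 CPM in D458 hairpin libraries, against 6310 to 6826 CPM in D458 controls. MYC and OTX2 make up most of these sums. In D425 hairpin cells IMPG2, EYS and NRL were higher on average, and CRX, GABRA5 and PDE6H lower. In D425 hairpin libraries, astrocyte markers summed to 17.6 to 37.4 CPM and endothelial markers to 3.49 to 6.09 CPM, against 43.7 to 52.8 and 1.40 to 2.65 CPM in D425 controls. The first is nearly all SLC1A3 (32.5 and 24.0 CPM with hairpins 6 and 8, against 47.7 CPM), while GFAP and AQP4 did not fall. The second is nearly all KDR (4.12 and 4.99 CPM, against 1.98 CPM). In D458 the astrocyte and endothelial sums overlapped between groups. Of 8 fibroblast and mesenchymal markers 3 to 4 averaged at least 1 CPM in a group, and their sum was 43.2 to 96 CPM in D425 hairpin libraries, against 18.6 to 33.6 CPM in D425 controls, and 32.3 to 61.0 CPM in D458 hairpin libraries, against 6.89 to 8.44 CPM in D458 controls. These sums move with the hairpin results below, and their part in them was not tested. Replicate 1 libraries carry an earlier date in the labels than replicates 2 and 3, and in D458 hairpin cells they stand apart for several of the genes described here. Adjusted p-values are Benjamini-Hochberg values over 14850 genes from the quasi-likelihood test of edgeR, with log2 fold changes ± SE, and every percentage of genes called refers to the same 14850.

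The promoters of DNMT1, UHRF1, EZH2 and DNMT3B are shown because the first 3 genes varied together across the libraries, with DNMT3B shown for comparison (r = 0.12 with DNMT1, 0.10 with UHRF1 and 0.51 with EZH2). The windows run from 250 bases before to 50 after a transcription start in RefSeq on GRCh38.p14 and were searched on both strands for the E2F-type motifs TTTCCCGC, TTTCGCGC, TTTGCCGC and TTTGGCGC. Matches of 2 of these motifs may share bases, and each match printed here stands alone in its window. The motif was chosen with the expression results known. Capitals mark a match, which reads as its reverse complement where it lies on the other strand. The DNMT1 window lies at chr19:10194904-10195203 on the minus strand, the first of 3 UHRF1 windows at chr19:4909251-4909550 on the plus strand, the first of 2 EZH2 windows at chr7:148884242-148884541 on the minus strand and the DNMT3B window at chr20:32779602-32779901 on the plus strand.
DNMT1: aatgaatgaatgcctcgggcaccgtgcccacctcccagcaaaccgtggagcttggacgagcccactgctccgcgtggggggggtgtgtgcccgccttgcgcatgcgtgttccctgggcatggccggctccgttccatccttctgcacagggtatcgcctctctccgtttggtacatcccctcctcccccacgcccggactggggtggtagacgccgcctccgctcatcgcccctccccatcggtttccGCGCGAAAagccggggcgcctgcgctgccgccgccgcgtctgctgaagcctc
UHRF1: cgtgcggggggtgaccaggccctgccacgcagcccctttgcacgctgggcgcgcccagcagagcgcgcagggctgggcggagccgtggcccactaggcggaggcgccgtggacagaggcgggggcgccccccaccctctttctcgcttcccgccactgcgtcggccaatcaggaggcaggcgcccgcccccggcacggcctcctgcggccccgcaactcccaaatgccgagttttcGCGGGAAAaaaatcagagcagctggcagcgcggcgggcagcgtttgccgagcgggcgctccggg
EZH2: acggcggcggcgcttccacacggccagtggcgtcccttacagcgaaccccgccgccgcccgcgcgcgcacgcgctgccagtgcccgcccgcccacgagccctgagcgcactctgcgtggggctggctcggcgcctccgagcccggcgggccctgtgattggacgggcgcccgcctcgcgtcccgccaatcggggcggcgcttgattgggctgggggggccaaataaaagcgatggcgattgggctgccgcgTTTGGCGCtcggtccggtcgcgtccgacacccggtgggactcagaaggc
DNMT3B: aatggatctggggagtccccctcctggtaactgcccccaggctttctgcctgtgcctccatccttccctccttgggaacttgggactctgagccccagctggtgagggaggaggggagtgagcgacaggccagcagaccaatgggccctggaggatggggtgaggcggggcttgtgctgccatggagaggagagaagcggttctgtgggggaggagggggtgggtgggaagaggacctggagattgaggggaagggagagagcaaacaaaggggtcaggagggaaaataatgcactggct
The windows hold 30, 36, 46 and 3 CpG dinucleotides in the order printed. At least 1 window held a match for 5 of the 10 genes (DNMT1, UHRF1, EZH1, EZH2 and SUZ12) and for none of DNMT3A, DNMT3B, TET1, TET2 and TET3. TET1, with no match, had r = 0.64, 0.65 and 0.61 with DNMT1, UHRF1 and EZH2. EZH1, with a match, had r = -0.08, -0.20 and 0.12 in that order, and SUZ12, with a match, 0.66, 0.68 and 0.56. Whether a match goes with shared levels was not tested. DNMT3B had only 1 window, so its CpG number and lack of a match describe that start and no other start of the gene. The same search found a match in 1164 of 35116 promoter windows (3.31%), in 687 of 10629 tested genes with a window (6.46%) and in 20 of 36 S phase genes (55.6%). A match describes these letters and is not a measured binding site.

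The lines differed at baseline, so levels are given first for the controls, D458 against D425. Of the 10 genes, 2 were higher and 2 lower in D458 controls, where 62.8% of all genes were called (31.4% in each direction). DNMT3B showed the widest gap of the 10: 9.02, 11.7 and 13.2 CPM in D458 controls, against 36.5, 62.3 and 70.7 CPM in D425 controls (log2 difference -2.32 ± 0.26, adjusted p = 8.3e-07). Every D458 value lay below every D425 value. TET1, the TET enzyme known from embryonic stem cells and early development, was also lower in D458 controls (29.6 ± 1.75 against 83.7 ± 11.9 CPM in D425 controls, log2 difference -1.5 ± 0.19, adjusted p = 3.0e-06). EZH2 was higher in D458 controls (153 ± 5.73 against 92.5 ± 1.88 CPM, 0.73 ± 0.15, adjusted p = 4.2e-04), and so was TET2 (25.9 ± 2.92 against 17.7 ± 1.03 CPM, 0.55 ± 0.17, adjusted p = 0.00970). The TET2 call did not stand without D458 control replicate 1 (0.45, adjusted p = 0.0591). DNMT1 passed under upper-quartile scaling (0.36, adjusted p = 0.0371) and EZH1 without D458 control replicate 3 (-0.32, adjusted p = 0.0497).

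**Figure D1:**
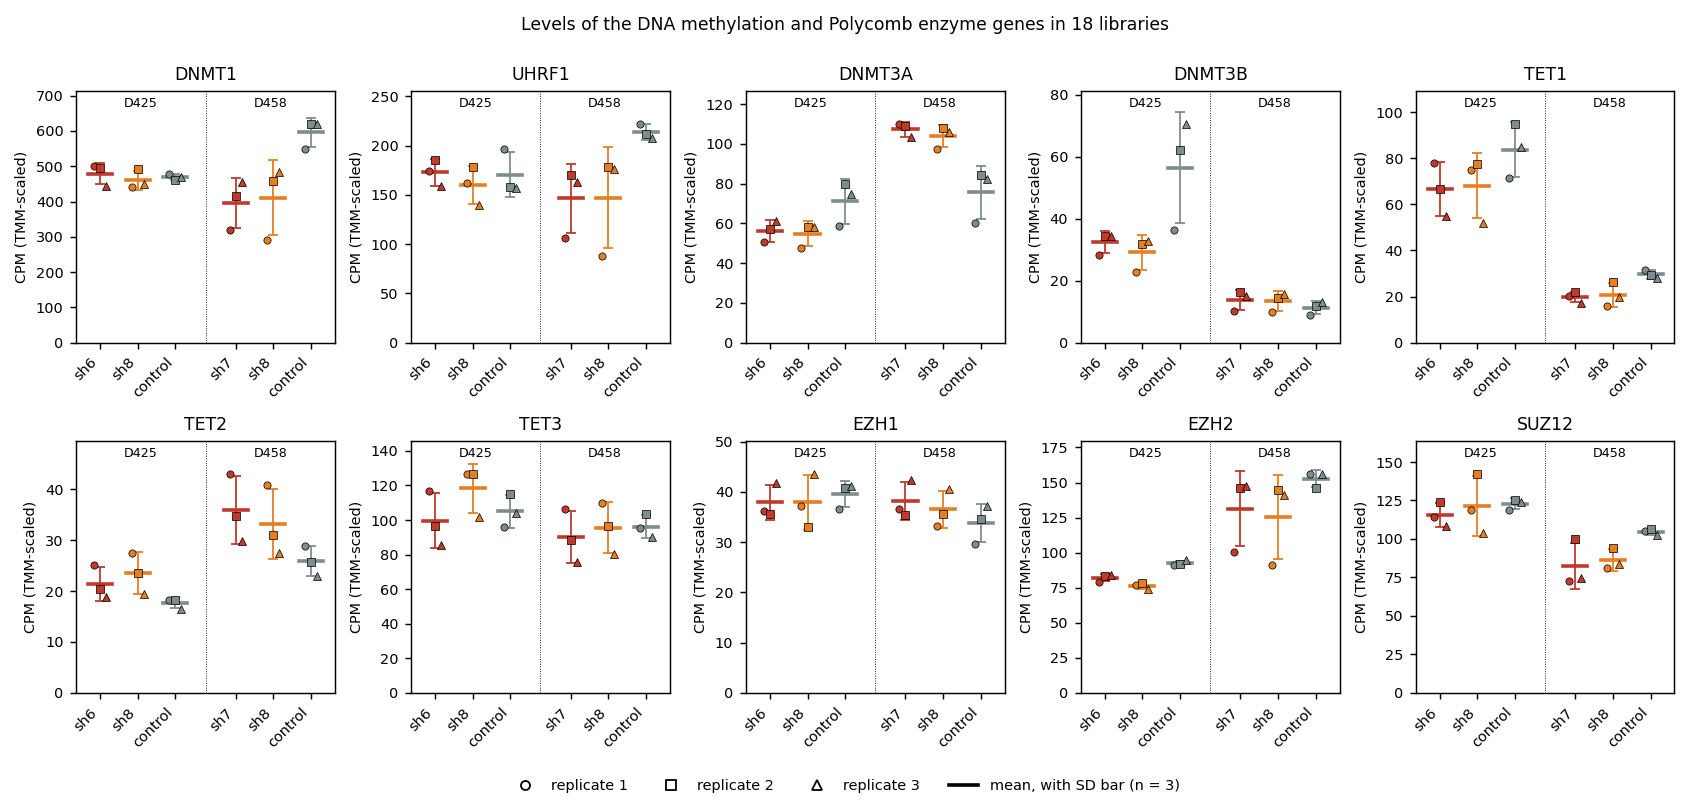
CPM of each of the 10 genes (vertical axes, one panel a gene) in 18 libraries, with D425 hairpin 6, hairpin 8 and control on the left of a panel and D458 hairpin 7, hairpin 8 and control on the right. Symbols give the replicate number and bars the mean and SD of 3 libraries. DNMT1 in D458 averages 397 and 411 CPM with hairpins, against 596 CPM in controls, and the D458 hairpin replicate 1 libraries are the lowest of D458 for DNMT1, UHRF1 and EZH2.

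Against the controls of the line, few of the 10 genes changed, and the 2 lines did not share a call unless the replicate number was fitted as a block within each line (the replicate block). In D425 only DNMT3B fell, with both hairpins. In D458 DNMT1 fell and DNMT3A rose with both hairpins, and TET1 and SUZ12 fell with hairpin 7. In counts, 0 were higher and 1 lower of 10 with hairpin 6 in D425, where 14.1% of all genes were called (7.31% higher and 6.84% lower). With hairpin 8 in D425, 0 were higher and 1 lower, where 21.7% of all genes were called (11.6% higher and 10.1% lower). In D458, 1 was higher and 3 lower with hairpin 7, against 22.6% of all genes (11.5% higher and 11.1% lower), and 1 was higher and 1 lower with hairpin 8, against 23.2% (12.1% higher and 11.1% lower). Under the replicate block the numbers were 3 and 3 of 10 in D425 and 6 and 7 of 10 in D458, where 27.8%, 37.2%, 40.0% and 39.6% of all genes were called, with every call made without the block still present. Both D425 hairpins called 6.48% of all genes higher and 5.94% lower, with 0 and 1 of the 10 among them, and both D458 hairpins called 9.28% higher and 8.64% lower, with 1 and 1 of the 10. All 4 comparisons shared 1.16% of genes higher and 0.795% lower, and 0 of the 10 were among them. The median log2 fold change of the 10 was -0.08 with hairpins 6 and 8 in D425, -0.16 with hairpin 7 and -0.14 with hairpin 8 in D458, beside medians of all genes between 0.01 and 0.02. The hairpins of a line share their controls, so agreement between them is not independent.

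**Figure D2:**
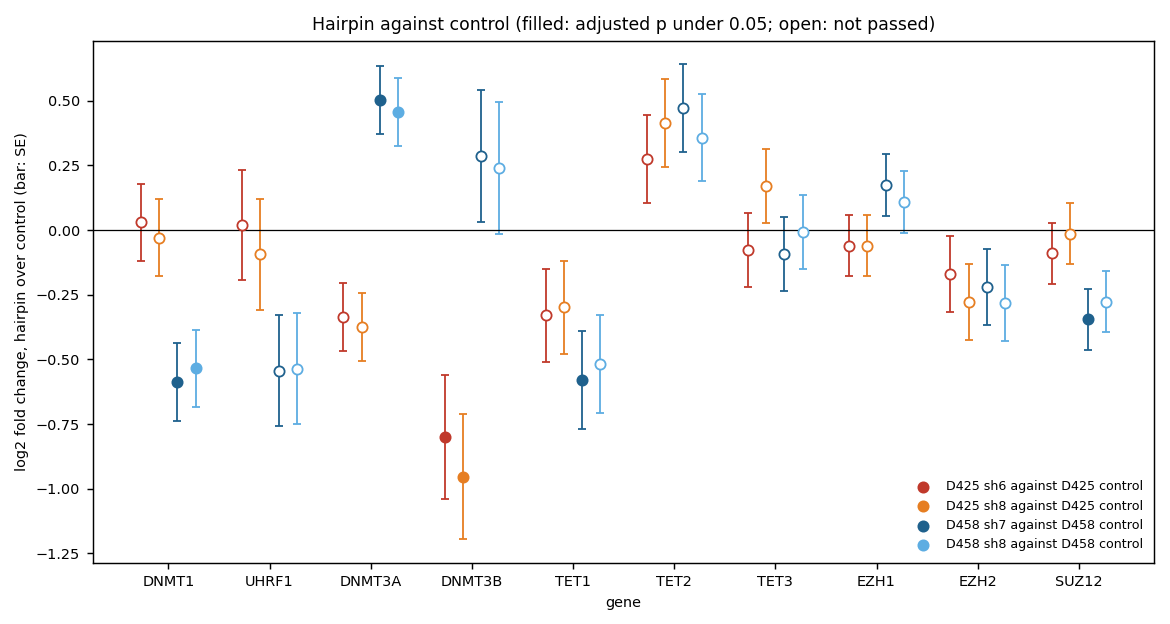
Log2 fold change (vertical axis, hairpin over the control of the line) ± SE of the 10 genes (horizontal axis) in the 4 hairpin comparisons, with filled symbols for an adjusted p under 0.05. Filled symbols are DNMT3B in both D425 comparisons, DNMT1 and DNMT3A in both D458 comparisons, and TET1 and SUZ12 with hairpin 7 in D458.

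Of the maintenance pair, DNMT1 was lower in D458 hairpin cells and overlapped the controls in D425 hairpin cells. It measured 318, 417 and 455 CPM with hairpin 7 and 291, 459 and 484 CPM with hairpin 8 in D458, against 548, 621 and 619 CPM in D458 controls. All 6 hairpin libraries lay below all 3 controls, with replicate 1 the lowest of each hairpin group. The log2 change was -0.59 ± 0.15 with hairpin 7 (adjusted p = 0.0124) and -0.54 ± 0.15 with hairpin 8 (adjusted p = 0.0191). Without the hairpin 7 replicate 1 library the value was -0.44, adjusted p = 0.0786, and without hairpin 8 replicate 1 it was -0.32, adjusted p = 0.0800. The hairpin 8 call was also lost without D458 control replicate 2 (-0.48, adjusted p = 0.0655) or 3 (-0.49, adjusted p = 0.0659), and in the D458 libraries alone neither passed (adjusted p = 0.0518 and 0.0676). In D425, DNMT1 measured 499, 494 and 444 CPM with hairpin 6 and 440.4, 491 and 448 CPM with hairpin 8, against 477, 460.2 and 471 CPM in controls. These groups overlapped, with changes of 0.03 ± 0.15 (95% interval -0.29 to 0.35) and -0.03 ± 0.15 (-0.35 to 0.29). Exons of DNMT1 and S1PR2 overlap on the same strand in the GENCODE annotation, so some counts may not be assignable to one of the genes with certainty. Whether the annotation used for counting holds this overlap was not checked. In bulk RNA, fewer cells in a given state and less RNA per cell cannot be told apart, for DNMT1 or any gene below.

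UHRF1, the partner that brings DNMT1 to replicated DNA, was also lower on average in D458 hairpin cells, with a wider spread. It measured 106, 170.0 and 164 CPM with hairpin 7 and 87.9, 178 and 176 CPM with hairpin 8 in D458, against 222, 211 and 207 CPM in D458 controls. Again all 6 hairpin libraries were below the controls, and replicate 1 of each hairpin was far below the other 2. Neither log2 fold change, -0.54 ± 0.22 with hairpin 7 (adjusted p = 0.0777) and -0.54 ± 0.21 with hairpin 8 (adjusted p = 0.0808), reached the threshold. Both did with the replicate block (-0.60, adjusted p = 0.0216, and -0.61, adjusted p = 0.0196). In D425 hairpin cells UHRF1 averaged 173 ± 13.5 CPM with hairpin 6 and 159.8 ± 19.6 CPM with hairpin 8, against 171 ± 22.4 CPM in controls, with overlapping groups. Across all 18 libraries, after the mean of each line was removed, DNMT1 and UHRF1 had a Pearson r of 0.93, a description over libraries that share lines, hairpins and depth.

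Of the de novo enzymes, DNMT3A rose in D458 and DNMT3B fell in D425. DNMT3A measured 110.3, 109 and 103 CPM with hairpin 7 and 97.7, 108 and 106 CPM with hairpin 8 in D458, against 60.3, 84.5 and 82.4 CPM in D458 controls. Every hairpin library exceeded every control, and the hairpin replicates lay close together while control replicate 1 was the lowest. The rise was 0.50 ± 0.13 (adjusted p = 0.0129) with hairpin 7 and 0.46 ± 0.13 (adjusted p = 0.0207) with hairpin 8, and the second was lost without D458 control replicate 1 (0.33, adjusted p = 0.0767). In D425 the levels were 50.5, 57.1 and 61.4 CPM with hairpin 6 and 47.6, 58.4 and 58.4 CPM with hairpin 8, against 58.5, 79.9 and 74.9 CPM in D425 controls. Control replicates 2 and 3 were above all hairpin libraries, while control replicate 1 lay within the hairpin 6 range and just above hairpin 8. Neither hairpin 6 (-0.34 ± 0.13, adjusted p = 0.103) nor hairpin 8 (-0.38 ± 0.13, adjusted p = 0.0507) reached the threshold without the replicate block, and both did with it (-0.33, adjusted p = 0.0106, and -0.37, adjusted p = 0.00368). For hairpin 8 DESeq2 gave -0.38, adjusted p = 0.0331. Both passed without D425 control replicate 1 as well (-0.46, adjusted p = 0.0223, and -0.50, adjusted p = 0.0113).

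DNMT3B, the de novo enzyme known for its role in early development and at pericentromeric repeats, fell in D425. It measured 28.4, 34.5 and 34.3 CPM with hairpin 6 and 22.7, 32 and 32.9 CPM with hairpin 8, against 36.5, 62.3 and 70.7 CPM in D425 controls. Hairpin and control libraries did not overlap, but control replicate 1 stood just above the hairpin range and well below the other 2 controls. The log2 change was -0.80 ± 0.24 (adjusted p = 0.0354) with hairpin 6 and -0.95 ± 0.24 (adjusted p = 0.0107) with hairpin 8. The hairpin 6 call was lost without any one hairpin 6 library (adjusted p = 0.132, 0.0720 and 0.0809 without replicates 1, 2 and 3) and without control replicate 2 (-0.73, adjusted p = 0.118) or 3 (-0.61, adjusted p = 0.192), and with no filter on low counts (adjusted p = 0.0535). The hairpin 8 call was lost without hairpin 8 replicate 1 (-0.80, adjusted p = 0.0576) or control replicate 3 (-0.76, adjusted p = 0.0694). DNMT3B lies on chromosome 20, where the 252 genes averaging at least 8 CPM had a median log2 fold change of -0.28 with hairpin 6 and -0.32 with hairpin 8 in D425. Relative to that median DNMT3B stood at -0.52 and -0.63, and 1.98% and 0.794% of those genes had a lower value. In D458 it was low throughout, with 10.2, 16.3 and 15 CPM with hairpin 7 and 9.78, 14.5 and 15.8 CPM with hairpin 8, against 9.02, 11.7 and 13.2 CPM in controls. Those groups overlapped, with changes of 0.29 ± 0.26 (95% interval -0.25 to 0.83) and 0.24 ± 0.25 (-0.30 to 0.78).

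The difference between the lines was tested for hairpin 8, the one construct used in both. DNMT3A and DNMT3B passed this test, 2 of 10 genes in the direction of D458, where 11.8% of all genes passed (6.19% higher and 5.65% lower in D458). The D458 effect less the D425 effect was 0.83 ± 0.19 for DNMT3A (adjusted p = 0.00944) and 1.19 ± 0.35 for DNMT3B (adjusted p = 0.0371). The DNMT3A difference stood without each single library, and the DNMT3B difference was lost without any one of 8 of the 12 libraries (D425 hairpin 8 replicates 1 and 2, D425 controls 2 and 3, D458 hairpin 8 replicates 2 and 3 and D458 controls 1 and 2), with adjusted p between 0.0522 and 0.104, and with no filter (adjusted p = 0.0545). For DNMT1 the difference of -0.51 ± 0.21 did not pass (adjusted p = 0.133) and passed with the replicate block (-0.54, adjusted p = 0.00392). Thus a DNMT1 fall that is called in D458 and not in D425 is not shown to differ between the lines by the test without the block. For the other 7 genes the difference lay between -0.44 for UHRF1 and 0.17 for EZH1, with adjusted p of at least 0.327. Hairpins 6 and 7 were each used in 1 line only, so line and construct cannot be told apart for them.

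Among the TET dioxygenases, TET1 was lower and TET2 higher on average in hairpin cells of both lines, and only 1 of these differences passed the test. TET1 measured 20.1, 21.9 and 17.4 CPM with hairpin 7 and 15.8, 26.4 and 19.9 CPM with hairpin 8 in D458, against 31.4, 29.4 and 27.9 CPM in D458 controls. No hairpin library reached the control range. The hairpin 7 fall of -0.58 ± 0.19 passed (adjusted p = 0.0379), and the hairpin 8 change of -0.52 ± 0.19 did not (adjusted p = 0.0571) unless the replicate block (-0.54, adjusted p = 0.0226) or DESeq2 (-0.50, adjusted p = 0.0398) was used, or hairpin 8 replicate 2 left out (-0.71, adjusted p = 0.0191). The hairpin 7 call was lost when any one of its 6 libraries was left out, with adjusted p between 0.0568 and 0.132, and under upper-quartile scaling (adjusted p = 0.0515) or no filter (adjusted p = 0.0530). In D425, TET1 averaged 66.6 ± 11.6 CPM with hairpin 6 and 68 ± 14.1 CPM with hairpin 8, against 83.7 ± 11.9 CPM in controls, with overlap between the groups and changes of -0.33 ± 0.18 and -0.30 ± 0.18 that did not pass (adjusted p = 0.255 and 0.255).

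TET2, a TET enzyme without the CXXC DNA-binding domain and known for its mutation in blood cancers, exceeded the control of the same replicate number in 12 of 12 hairpin libraries. The hairpins of a line share their controls, so these are not independent agreements, and pairing by number is not shown for all D425 replicates. The share of all genes with such a count is not given. It measured 25, 20.4 and 18.7 CPM with hairpin 6 and 27.5, 23.6 and 19.4 CPM with hairpin 8 in D425, against 18.2, 18.3 and 16.5 CPM in D425 controls. All hairpin libraries of D425 lay above all controls, by a small margin for replicate 3. In D458 it measured 43.1, 34.7 and 29.9 CPM with hairpin 7 and 40.9, 31.1 and 27.5 CPM with hairpin 8, against 28.9, 25.8 and 23 CPM in controls. There hairpin 7 lay above the controls and hairpin 8 replicate 3 fell within them, and in each group replicate 1 was highest or level with replicate 2. Without the block no TET2 difference passed (0.28 ± 0.17, 0.41 ± 0.17, 0.47 ± 0.17 and 0.36 ± 0.17 for hairpins 6 and 8 in D425 and 7 and 8 in D458, adjusted p = 0.316, 0.0916, 0.0540 and 0.134). With the block all 4 passed, at 0.27, 0.40, 0.46 and 0.34 (adjusted p = 0.0284, 0.00170, 6.7e-04 and 0.00463). The hairpin 7 value also passed by DESeq2 (0.50, adjusted p = 0.0294), with RLE or upper-quartile scaling (adjusted p = 0.0479 and 0.0463) and without hairpin 7 replicate 3 (0.61, adjusted p = 0.0315).

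TET3, the TET enzyme known from the oocyte and from neurons, averaged 99.7 ± 16 CPM with hairpin 6 and 118 ± 14.4 CPM with hairpin 8 in D425, against 105 ± 9.65 CPM in controls, and 90.2 ± 15.2 CPM with hairpin 7 and 95.6 ± 14.7 CPM with hairpin 8 in D458, against 96.2 ± 6.71 CPM in controls. All 4 TET3 groups overlapped their controls, with 95% intervals of the log2 change reaching from -0.40 to 0.47 over the 4 comparisons.

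In the PRC2 core, SUZ12 fell with hairpin 7 in D458 and neither catalytic subunit passed the test. SUZ12 measured 72.8, 99.7 and 74.8 CPM with hairpin 7 and 81, 94.4 and 83.9 CPM with hairpin 8 in D458, against 105, 107 and 103 CPM in D458 controls. Every hairpin library was below the controls, with replicate 2 the nearest. The fall of -0.34 ± 0.12 with hairpin 7 only just passed (adjusted p = 0.0459), and it was lost without hairpin 7 replicate 1 (-0.25, adjusted p = 0.234) or 3 (-0.26, adjusted p = 0.171), without control replicate 1, 2 or 3 (adjusted p = 0.103, 0.139 and 0.106), and under upper-quartile (-0.30, adjusted p = 0.0642) or RLE scaling (-0.32, adjusted p = 0.0577), with no filter (adjusted p = 0.0541) and in the D458 libraries alone (adjusted p = 0.0604). The hairpin 8 change of -0.28 ± 0.12 (adjusted p = 0.0992) passed only with the block (-0.28, adjusted p = 0.0149). In D425 SUZ12 averaged 115 ± 7.64 CPM with hairpin 6 and 122 ± 19.5 CPM with hairpin 8, against 123 ± 3.52 CPM in controls, and the groups overlapped. SUZ12P1, a partial copy whose reads could be shared with SUZ12, was not called in any comparison and changed by -0.02 to -0.20.

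EZH2 was lower on average in all 4 hairpin groups. In D425 it measured 79.2, 83.3 and 83.9 CPM with hairpin 6 and 76.7, 78.2 and 74 CPM with hairpin 8, against 91, 91.9 and 94.6 CPM in controls. The groups did not overlap and the replicates were tight, but the gap was small. In D458 it measured 100.2, 146 and 147 CPM with hairpin 7 and 91.2, 145 and 141 CPM with hairpin 8, against 156, 146 and 156 CPM in controls. There the average difference came mainly from replicate 1 of each hairpin, the other 4 libraries lying between 141 and 147 CPM beside a lowest control of 146 CPM. The log2 changes were -0.17 ± 0.15, -0.28 ± 0.15, -0.22 ± 0.15 and -0.28 ± 0.15 in the same order, with adjusted p of 0.495, 0.193, 0.288 and 0.171. The hairpin 8 change passed in D458 with the block (-0.32, adjusted p = 0.0300) and in D425 from the D425 libraries alone (-0.27, adjusted p = 0.0156). EZH1, the paralogue that predominates in cells that no longer divide, passed no test and had averages of 37.9 ± 3.44 CPM with hairpin 6 and 37.9 ± 5.40 CPM with hairpin 8, against 39.5 ± 2.56 CPM in D425 controls, and of 38.2 ± 3.77 CPM with hairpin 7 and 36.5 ± 3.69 CPM with hairpin 8, against 33.8 ± 3.78 CPM in D458 controls. All 4 EZH1 groups overlapped their controls.

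Ratios of paralogues within a library do not depend on the scaling between libraries, and are given on the log2 scale of CPM, with no correction for length, as a description. EZH1 over EZH2 in D458 was -1.45, -2.05 and -1.80 with hairpin 7 and -1.45, -2.02 and -1.80 with hairpin 8, against -2.40, -2.08 and -2.07 in controls. All 6 hairpin libraries were above the controls, by least in replicate 2. In D425 the means of -1.12 ± 0.11 and -1.02 ± 0.24 with hairpins 6 and 8, against -1.23 ± 0.08 in controls, differed by about the spread of the replicates. DNMT3A over DNMT3B in D425 was 0.83, 0.73 and 0.84 with hairpin 6 and 1.07, 0.87 and 0.83 with hairpin 8, against 0.68, 0.36 and 0.08 in controls. The hairpin libraries lay above the controls, which spread widely among themselves. In D458 the same ratio averaged 2.99 ± 0.39 and 2.99 ± 0.30 with hairpins 7 and 8, against 2.75 ± 0.11 in controls, and overlapped. TET1 over TET3 was lower in every hairpin library than in every control of its line, at -0.58 ± 0.05 and -0.81 ± 0.14 with hairpins 6 and 8, against -0.33 ± 0.08 in D425 controls, and at -2.18 ± 0.20 and -2.23 ± 0.50 with hairpins 7 and 8, against -1.70 ± 0.10 in D458 controls.

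**Figure D3:**
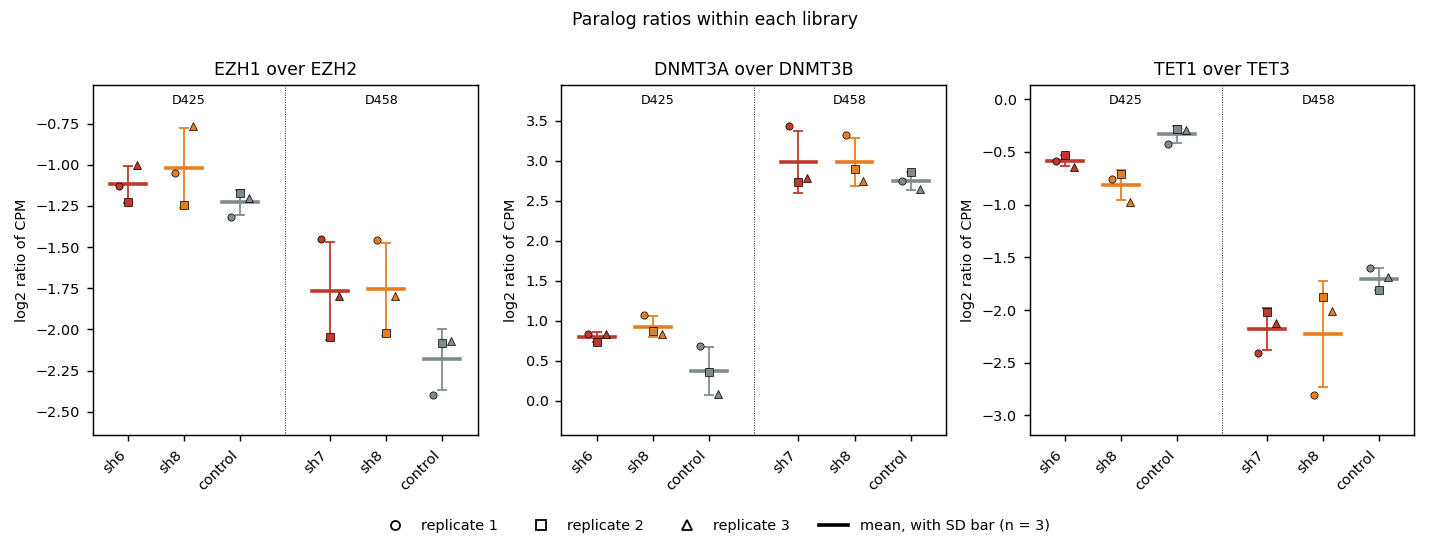
Log2 ratio of CPM within a library (vertical axes) for EZH1 over EZH2, DNMT3A over DNMT3B and TET1 over TET3, with hairpin groups left of the control in each line, one symbol a library and bars for mean and SD (n = 3). TET1 over TET3 is lower in hairpin libraries of both lines, EZH1 over EZH2 is higher in the D458 hairpin libraries and DNMT3A over DNMT3B is higher in the D425 hairpin libraries.

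No call was made among the 10 between the hairpins of a line. Hairpin 8 against hairpin 6 in D425 and hairpin 8 against hairpin 7 in D458 gave 0 by edgeR, 0 at an unadjusted p under 0.05 and 0 by DESeq2, while edgeR called 0% of all genes. EYA2 itself averaged 20.3 ± 2.77 CPM with hairpin 8 and 48.1 ± 3.43 CPM with hairpin 7 in D458. A miss of the threshold with 3 libraries a group does not show that the constructs act alike.

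Groups that do not overlap were common in these data and are read against all genes. With hairpin 6 in D425, 1 of the 10 lay wholly above and 2 wholly below the controls, where 35.8% of all genes did not overlap (18.6% above and 17.2% below). With hairpin 8 in D425 the numbers were 1 above and 3 below, against 35.9% (18.5% above and 17.4% below). In D458 they were 2 above and 4 below with hairpin 7, against 43.1% (21.6% and 21.5%), and 1 above and 5 below with hairpin 8, against 41.5% (20.8% and 20.7%).

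For 9 of the 10, the 3 genes whose levels ran most like it over 18 libraries, with line means removed, are given as a description, with r of at least 0.89 for each. UHRF1 was nearest to CHAF1A (r = 0.98), MCM3 and CHAF1B, which encode chromatin assembly and replication licensing factors. EZH2 was nearest to RFC4 (r = 0.97), a clamp loader subunit, TUBB6 and FANCA. For DNMT3A they were ABCA2, NSMF and RPL13A, and for DNMT3B TRIM14, TMC6 and SLC2A4RG. TET1 was nearest to SLC7A2, AHCTF1 and AGO2, TET2 to TNNI1, RABGAP1L and ACTA2, and TET3 to ANKRD17, ARID1A and RC3H1. EZH1 was nearest to SPPL2B, FAM193B and SPSB3, and SUZ12 to STAG2, TFAM and BCLAF1. Among the 10 themselves, UHRF1 and EZH2 had r = 0.87, DNMT1 and EZH2 0.81, TET1 and SUZ12 0.79 and DNMT3A and DNMT3B 0.76, while EZH2 and TET2 ran against each other (r = -0.78).

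The 44 S phase genes share the known cell cycle timing of DNMT1, UHRF1 and EZH2, and more of them passed as lower in D458 than in D425. In the test between lines for hairpin 8, 0 were higher and 0 lower (median difference -0.19), where 6.19% and 5.65% of all genes passed. The S phase fall is thus not shown to differ between the lines, and the list as a whole was not tested. In D458 with hairpin 7, 0 were higher and 23 lower, and with hairpin 8, 0 and 25, where 11.1% of all genes were lower in each. In D425, 0 were higher and 3 lower with hairpin 6, and 0 and 6 with hairpin 8, where 6.84% and 10.1% of all genes were lower. Median log2 changes were -0.07 and -0.27 with hairpins 6 and 8 in D425 and -0.45 and -0.48 with hairpins 7 and 8 in D458. DUT, the enzyme that clears dUTP, averaged 86.5 ± 9.41 CPM with hairpin 7 and 91 ± 14 CPM with hairpin 8 in D458, against 132 ± 5.16 CPM in controls (-0.61 ± 0.10 and -0.54 ± 0.10, adjusted p = 8.1e-04 and 0.00176). CCNE1, cyclin E1, averaged 16.1 ± 1.33 CPM with hairpin 8 in D425, against 28.6 ± 2.42 CPM in controls (-0.83 ± 0.13, adjusted p = 3.8e-04). Under the replicate block the lower S phase genes numbered 4 and 20 in D425 and 38 and 41 in D458, where 13.3%, 17.7%, 19.99% and 19.7% of all genes were lower. Without replicate 1 they numbered 4 and 18 in D425 and 26 and 16 in D458, and the share of all genes in that setting is not given. For the DNMT1 change in D458, the part of cell cycle state was not tested.

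Other parts of the DNA methylation machinery were mixed. Of 22 tested genes outside the 10, 2 were higher and 1 lower with hairpin 6 and 4 and 2 with hairpin 8 in D425, and 4 were higher and 7 lower with hairpin 7 and 3 and 5 with hairpin 8 in D458. Of all genes 7.31%, 11.6%, 11.5% and 12.1% were higher and 6.84%, 10.1%, 11.1% and 11.1% lower in that order. USP7, a deubiquitinase that stabilises DNMT1 and UHRF1, averaged 193 ± 25.4 CPM with hairpin 7 and 189 ± 26.1 CPM with hairpin 8 in D458, against 272 ± 14.4 CPM in controls. Its fall was -0.49 ± 0.12 (adjusted p = 0.00746) and -0.53 ± 0.12 (adjusted p = 0.00520), and the hairpin 7 call was lost without hairpin 7 replicate 1 (-0.38, adjusted p = 0.0588). GADD45A, a stress-induced protein linked to demethylation, rose in D458 to 72 ± 4.06 CPM with hairpin 7 and 64.2 ± 12.8 CPM with hairpin 8, against 37.6 ± 2.70 CPM in controls (0.94 ± 0.18 and 0.77 ± 0.18, adjusted p = 0.00276 and 0.00796). Both GADD45A calls were lost without replicate number 3 in all groups (adjusted p = 0.0724 and 0.0811). CXXC4, known to bind unmethylated CpG and to promote loss of TET2 protein, rose with hairpin 8 in D425 (1.53 ± 0.27, adjusted p = 9.6e-04). It was also called higher with hairpin 6 in D425 (0.91 ± 0.27) and with hairpins 7 and 8 in D458 (0.89 ± 0.25 and 0.96 ± 0.25), calls that were lost without, among other single libraries, replicate 1 of hairpin 6, 7 or 8 (adjusted p = 0.198, 0.0908 and 0.0750). Under the block the counts were 4 and 4, 5 and 4, 5 and 10, and 5 and 10 higher and lower in the same order, and without replicate 1 they were 2 and 1, 3 and 2, 3 and 3, and 2 and 3.

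Among 11 tested PRC2 subunits outside the 10, 0 were higher and 2 lower with hairpin 6 and 1 and 3 with hairpin 8 in D425, and 0 and 3 with hairpin 7 and 0 and 2 with hairpin 8 in D458. Of all genes 6.84%, 10.1%, 11.1% and 11.1% were lower in that order, and no test of the list was made. PHF19, a Polycomb-like subunit that recruits PRC2 to chromatin, averaged 54.4 ± 6.17 CPM with hairpin 6 and 45.1 ± 7.21 CPM with hairpin 8 in D425, against 97.7 ± 18.2 CPM in controls. This fall of -0.85 ± 0.19 and -1.12 ± 0.19 (adjusted p = 0.00693 and 7.5e-04) stood without each single library. Both calls were lost without replicate number 2 in all groups (adjusted p = 0.181 and 0.0553). EED, the core subunit that binds the finished histone mark, fell in D458 to 13.6 ± 0.904 CPM with hairpin 7 and 12.8 ± 0.454 CPM with hairpin 8, against 19.4 ± 3.10 CPM in controls (-0.51 ± 0.14 and -0.59 ± 0.14, adjusted p = 0.0180 and 0.00836). Its hairpin 7 call was lost without hairpin 7 replicate 1 (adjusted p = 0.0942), control replicate 1 (adjusted p = 0.0947) or control replicate 3 (adjusted p = 0.0578), and the hairpin 8 call without control replicate 1 (adjusted p = 0.0506). Under the block the lower PRC2 subunits numbered 3 and 4 in D425 and 5 and 5 in D458, where 13.3%, 17.7%, 19.99% and 19.7% of all genes were lower. Without replicate 1 they numbered 3 and 3 in D425 and 1 and 1 in D458, with no share of all genes given. In Polycomb repressive complex 1, which ubiquitinates histone H2A, 24 subunits were tested, with 2 higher and 3 lower with hairpin 6 and 2 and 4 with hairpin 8 in D425, and 2 and 2 with each hairpin in D458. Of all genes 7.31%, 11.6%, 11.5% and 12.1% were higher in that order, with the lower shares as above. Under the block the counts for this complex were 4 and 6, 3 and 6, 3 and 6, and 2 and 7. BCORL1, a corepressor subunit of one form of that complex, fell in D425 (-0.65 ± 0.13 and -0.54 ± 0.13 with hairpins 6 and 8, adjusted p = 0.00312 and 0.00747), the hairpin 8 call being lost without control replicate 3 (adjusted p = 0.0522).

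Of 8 enzymes and cofactors that oppose Polycomb marks, 0 were higher and 1 lower with each hairpin in D425, and 2 were higher and 1 lower with each in D458. Of all genes 7.31%, 11.6%, 11.5% and 12.1% were higher for hairpins 6 and 8 in D425 and 7 and 8 in D458. In the same order 6.84%, 10.1%, 11.1% and 11.1% were lower. Under the block 1 of the 8 was higher and 3 lower with each in D425, and 2 and 2 with each in D458. ASXL1, the cofactor of the H2A deubiquitinase BAP1, averaged 147 ± 6.78 CPM with hairpin 6 and 149 ± 2.54 CPM with hairpin 8 in D425, against 215 ± 24.4 CPM in controls (-0.55 ± 0.08 and -0.52 ± 0.08, adjusted p = 6.3e-04 and 4.8e-04). The hairpin 6 call was lost without replicate number 3 in all groups (adjusted p = 0.0872) and the hairpin 8 call without number 2 (adjusted p = 0.0531). KDM6B, a demethylase of the mark that PRC2 writes, averaged 88.1 ± 25.4 CPM with hairpin 7 and 91.5 ± 30.3 CPM with hairpin 8 in D458, against 57 ± 3.76 CPM in controls. Its rise of 0.63 ± 0.20 and 0.68 ± 0.20 (adjusted p = 0.0314 and 0.0210) was lost without replicate 1 of either hairpin (adjusted p = 0.202 and 0.146). KDM6B was also lost without D458 control replicate 1, 2 or 3 for hairpin 7 (adjusted p = 0.0662, 0.0627 and 0.10) and control replicate 1 or 3 for hairpin 8 (adjusted p = 0.0515 and 0.0758).

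The 10 genes were then set beside the rise of low-abundance genes in hairpin cells, since both DNA methylation and PRC2 act to keep genes at low levels. Genes were binned by mean CPM over the 9 libraries of a line. Those under 1 CPM had a median log2 fold change of 0.33 with hairpin 6 and 0.50 with hairpin 8 in D425, and of 0.53 with hairpin 7 and 0.50 with hairpin 8 in D458. Of them, 6.47% and 11.7% were called higher in D425 and 9.68% and 9.77% in D458. Only genes that passed the filter on low counts were binned, and a gene can pass through a single group of libraries. Hairpin groups outnumber control groups, so genes high only in hairpin cells enter this bin more readily. That can raise its median and its share called higher. How much of the rise in the bin comes from this was not tested. The values per library given below use no such filter. Their shares of counts, however, group genes by mean CPM over all 18 libraries, most of them hairpin libraries. Genes high only in hairpin cells can therefore enter the groups set by a CPM floor more readily. The number of genes with at least 1 count uses neither the filter nor such groups. Genes at 64 CPM and over had medians of -0.04 and -0.08 in D425 and -0.10 and -0.10 in D458. None of the 10 averaged under 4 CPM. In both lines DNMT1, UHRF1, EZH2, SUZ12 and TET3 were in the top bin, where 11.1% and 18.3% of genes were lower in D425 and 19.9% and 20.7% in D458. The DNMT1 falls in D458 were beyond that median, and 1.87% and 3.40% of the 588 genes on its chromosome, 19, averaging at least 8 CPM had a lower value.

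**Figure D4:**
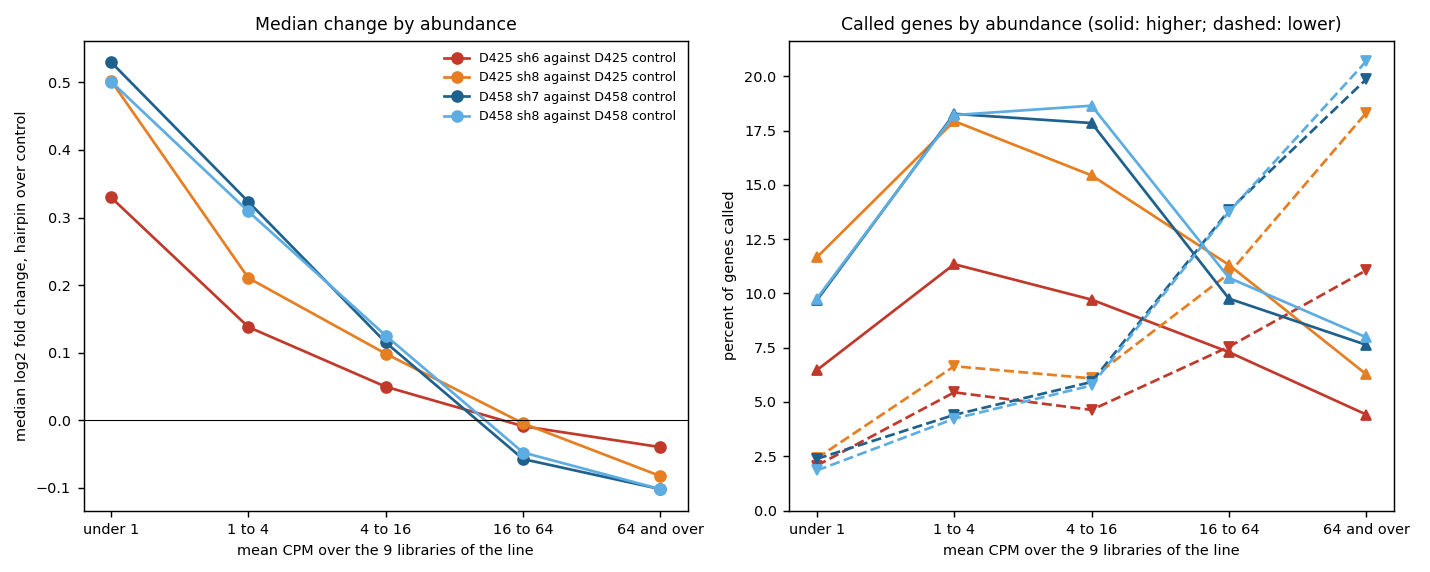
Left, median log2 fold change (vertical axis) of tested genes by bin of mean CPM over the line (horizontal axis) in the 4 hairpin comparisons. Right, the percent of genes in a bin called higher (solid) and lower (dashed). Medians lie at 0.33 to 0.53 under 1 CPM and at -0.10 to -0.04 at 64 CPM and over. Genes high only in hairpin groups enter the lowest bin more readily through the filter, which can raise its values.

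The low-abundance signal was also measured per library. It was known from earlier results of these data, so its values are given as a description with no test. After all libraries were thinned to 21260369 counts, 17779, 17024 and 17447 genes had at least 1 count with hairpin 6 and 18296, 16978 and 17447 with hairpin 8 in D425, against 16955, 16673 and 16517 in D425 controls. In D458 the numbers were 17348, 16905 and 16782 with hairpin 7 and 17546, 16672 and 16640 with hairpin 8, against 16534, 16211 and 16263 in D458 controls. In each line every hairpin library exceeded every control, and replicate 1 was the highest of each hairpin group and of each control group. The mean difference over the lines was 713 genes. The share of counts in genes averaging 1 to 4 CPM was 0.425%, 0.372% and 0.451% with hairpin 6 and 0.489%, 0.382% and 0.482% with hairpin 8 in D425, against 0.371%, 0.385% and 0.363% in D425 controls. Replicate 2 of each hairpin lay below control replicate 2, so this share overlapped in D425. In D458 it was 0.470%, 0.398% and 0.370% with hairpin 7 and 0.504%, 0.366% and 0.360% with hairpin 8, against 0.335%, 0.302% and 0.303% in D458 controls, with no overlap. The share in genes averaging under 1 CPM overlapped in D425 as well, through replicate 2 of both hairpins, and did not overlap in D458.

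**Figure D5:**
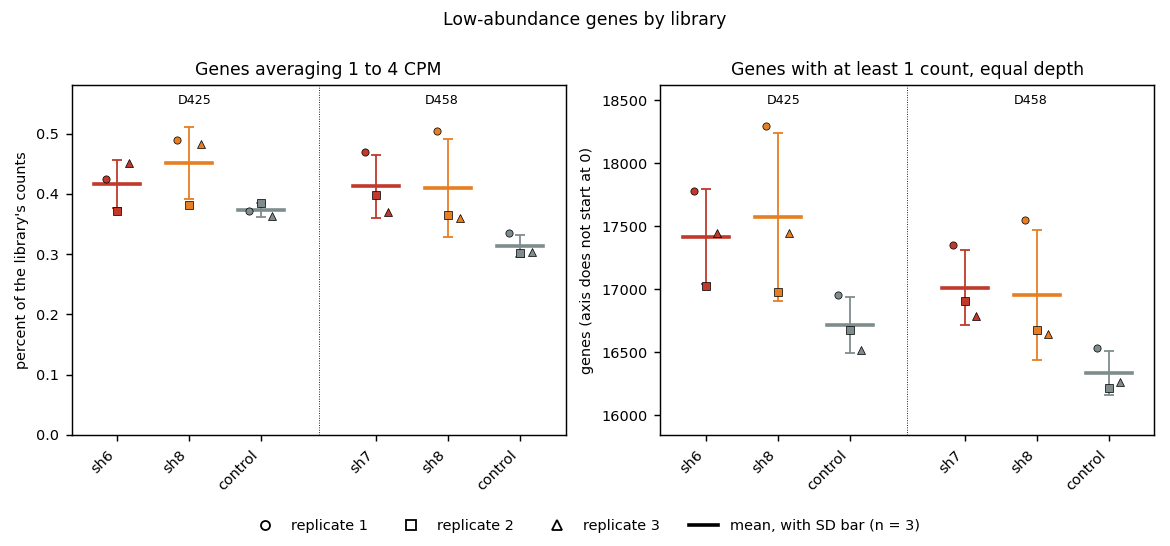
Left, percent of counts in genes averaging 1 to 4 CPM (vertical axis). Right, genes with at least 1 count after thinning to 21260369 counts (vertical axis, which does not begin at 0), by group, one symbol a library with mean and SD (n = 3). The 12 hairpin libraries lie at 16640 to 18296 genes and the 6 controls at 16211 to 16955, with no overlap within a line.

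Beside this rise, DNMT3B was the one gene of the 10 called in D425, while DNMT1 and DNMT3A were called with both hairpins in D458. In D425 with hairpins 6 and 8, without the block, DNMT3A was at -0.34 and -0.38, TET1 at -0.33 and -0.30, TET2 at 0.28 and 0.41 and EZH2 at -0.17 and -0.28 in log2 change, and none passed. DNMT1, UHRF1, EZH1 and SUZ12 lay between -0.09 and 0.03, and TET3 at -0.08 and 0.17. Without the replicate block no gene of the 10 was called in both lines, and with it TET2 was higher in all 4 comparisons and DNMT3A was lower in D425 and higher in D458. Whether any of the 10 bears on the rise was not tested, and DNA methylation and histone marks were not measured here.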

How the data were processed

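RNA of 18 libraries in 6 groups (D425 and D458, 2 EYA2 hairpins and a non-targeting control each, n = 3) was measured by stranded TruSeq mRNA sequencing, per the labels' protocols. The authors deposited whole-number read counts per gene symbol, 25369 genes with 1 column per library and 0 columns unused. Per the submitters' processing notes reads were handled with TopHat2 and Bowtie2, then HTSeq, on GRCh37/hg19, with bcl2fastq, FastQC, Picard and SAMtools also named. For their versions and for reads matching several genes, the sources used here give nothing.

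The counts were analysed in R 4.3.3 with edgeR 4.0.16 (limma 3.58.1): filterByExpr with a minimum count of 10, which removed 10519 genes and left 14850, TMM scaling, and a robust quasi-likelihood fit of all 18 libraries with 1 coefficient a group and 12 residual degrees of freedom. Calls are Benjamini-Hochberg adjusted p under 0.05, and SE is the fold change over the square root of the F value. Alternatives were DESeq2 1.42.0, RLE and upper-quartile scaling, no filter, a replicate block within each line, the line alone, each library or replicate number left out, and, chosen after seeing the data, list counts under the block and without replicate 1. Library totals of 21260369 to 31552051 set the counting error, and intervals cover the replicates only.

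Replicate numbers were checked for pairing. Same-numbered libraries had positively correlated deviations from their group means in all 9 pairs of each line (r = 0.105 to 0.684 in D425, 0.209 to 0.815 in D458). Different numbers averaged -0.17 and -0.21, but subtracting group means makes these negative wherever same-numbered values are positive, so the contrast is no support. In D425, hairpin 6 replicates 2 and 3 followed control replicates 3 and 2 (r = 0.24, 0.25) more than 2 and 3 (0.18, 0.105). So did hairpin 8 replicates 2 and 3 (0.20, 0.23 against 0.19, 0.12). Numbers 2 and 3 share a date and are not shown to pair hairpin with control in D425. Within a line the labels give each number a single run label and date, and on those labels the numbers were taken to pair the samples. The D425 calls under the block rest on that choice. A block nested in line pairs no D458 library with a D425 library.

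Text names all 10 genes and, from each context list, up to 4 called genes with the smallest adjusted p, from which examples were taken. For likeness the 3 genes with the highest Pearson r of log2(CPM + 0.5) were named, among genes averaging at least 1 CPM; those of DNMT1 are not reported here. The 10 genes, the lists, the promoter motif and the tests were chosen with earlier results of these data known. Chromosomes came from RefSeq for 13453 of 14850 genes, by symbol. Promoter sequences are on another build than the counts and serve only as sequence. The counting test was checked on simulated data.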

Additional observations from a re-analysis of the deposited data

Results flagged for a closer look

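The hairpin 8 effect was tested for a difference between lines, as the log2 change in D458 minus that in D425, and among the 10 enzymes and 35 context genes 14 differed (edgeR, adjusted p under 0.05). The context genes were chosen for small p-values in the hairpin comparisons, so this number is not set against all genes. Among the enzymes these were DNMT3A (0.83) and DNMT3B (1.19). Of chromatin cofactors and the methylation machinery, PHF19 differed by 1.19 (adjusted p = 0.0106), GADD45A by 0.95 (adjusted p = 0.0251) and ASXL1 by 0.49 (adjusted p = 0.0149). Of imprinted genes, NDN differed by 0.92 (adjusted p = 8.1e-04) and PEG3 by 3.08 (adjusted p = 0.0441). Of germline genes, BRDT differed by -5.57 (adjusted p = 0.00103), MAGEC2 by -2.38 (adjusted p = 0.0158) and STK31 by -4.54 (adjusted p = 0.0262). The STK31 value is fitted from a D425 control group with 0 counts and is no bound. Of developmental regulators, TBX1 differed by 2.16 (adjusted p = 7.8e-04), TBX2 by 1.00 (adjusted p = 0.0189), SIX2 by 0.81 (adjusted p = 0.00512) and HOXD13 by -1.64 (adjusted p = 0.00148).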

How the results depend on the processing

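The number of the 10 genes called depended on the processing. Brackets give the share called of all genes tested in the same setting. In D425 the number was 1 for hairpin 6 (14.1%), and 0 with no filter (8.26%) and 3 with the replicate block (27.8%). For hairpin 8 it was 1 (21.7%), and 2 by DESeq2 (24.7%), 3 with the block (37.2%) and 2 from the line alone (22.6%). In D458 it was 4 for hairpin 7 (22.6%), and 2 with no filter (12.8%) and 2 from the line alone (19.8%). For hairpin 8 there it was 2 (23.2%), and 7 with the block (39.6%) and 1 from the line alone (19.9%). The test between lines gave 2 (11.8%), and 1 with no filter (6.51%). The controls gave 4 (62.8%), and 7 with the block (70.5%), which is nested in line and cannot pair the lines. With a library or replicate number left out the ranges were 0 to 3, 0 to 3, 0 to 4 and 0 to 3 for the hairpins in that order, 0 to 3 between lines and 3 to 6 for the controls. The lowest values came without replicate 2 or 3, which leaves 2 libraries a group. In the hairpin comparisons the block changed no other call of the 10 than those given above. All genes called numbered 2101, 3221, 3357 and 3442 for hairpins 6 and 8 in D425 and 7 and 8 in D458, and 4134, 5521, 5937 and 5888 with the block, and between lines 1758, and 3934 with the block. Their ranges with libraries left out were 116 to 3439, 513 to 4146, 663 to 2910, 818 to 3311 and, between lines, 75 to 2322. Hairpin against hairpin gave 0 genes in D425, 6 by DESeq2 and 0 to 16 with libraries left out, and 0 in D458, 4 by DESeq2, 1 with the block and 2 from the line alone. Higher genes were 51.1% and 52.1% of those called with hairpins 7 and 8 in D458, and 62.8% and 63.4% under upper-quartile scaling. In the bin under 1 CPM, binning by control libraries gave medians of 0.54, 0.71, 0.74 and 0.69 and 10.7%, 17.6%, 15.4% and 15.7% called higher. Those controls are also the reference of the fold change, so genes picked for a low control value tend toward a rise. These values are therefore not a measure of a stronger rise. With libraries left out the medians ranged from 0.27 to 0.44, 0.36 to 0.68 and, with hairpin 8 in D458, 0.32 to 0.59, and the percent higher from 0.120 to 11.3, 0.560 to 15.5, 0.769 to 7.37 and 0.808 to 4.41.

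Changes of sign were confined, among the 10 genes, to differences that passed no test. Upper-quartile scaling gave 0.020 for DNMT1 and 0.036 for SUZ12 with hairpin 8 in D425. TET3 with hairpin 8 in D458 was 0.011 by DESeq2, 0.012 with RLE, 0.044 with upper-quartile scaling and 0.018 with no filter. EZH2 between lines was 0.015 by DESeq2, 0.015 with RLE and 0.024 with no filter. With libraries left out, DNMT1 ranged from -0.012 to 0.079 (hairpin 6) and -0.10 to 0.016 (hairpin 8), UHRF1 from -0.093 to 0.13 and -0.23 to 0.017, EZH1 from -0.14 to 0.0031 and -0.18 to 0.052, SUZ12 from -0.15 to 0.10 (hairpin 8) and TET3 from -0.27 to 0.021 (hairpin 6), all in D425. TET3 in D458 ranged from -0.23 to 0.042 and -0.125 to 0.12 with hairpins 7 and 8. DNMT3A between controls ranged from -0.032 to 0.22, and between lines EZH2 ranged from -0.10 to 0.21, TET1 from -0.40 to 0.17 and TET2 from -0.22 to 0.092. The cause was not tested. The low-abundance measures and the paralogue ratios kept their direction under each alternative run. Dates, lines and 3 libraries a group limit what can be separated, and protein and chromatin marks were not measured.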

Other observations

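Gene classes that DNA methylation or Polycomb complexes are known to silence are given by their counts, with no test of a class. Only genes that passed the filter on low counts are counted, and genes high only in hairpin cells pass it more readily. That can raise the numbers called higher in classes that are mostly silent, and how much was not tested. Of all genes 7.31%, 11.6%, 11.5% and 12.1% were higher, and 6.84%, 10.1%, 11.1% and 11.1% lower, for hairpins 6 and 8 in D425 and 7 and 8 in D458. Of 24 tested imprinted genes, 1 was higher and 1 lower with hairpin 6 and 5 and 2 with hairpin 8 in D425, and 8 and 0 with hairpin 7 and 6 and 0 with hairpin 8 in D458. There 20 of 24 lay above 0 with each, and the medians were 0.38 and 0.54, beside medians of all genes of 0.01. The share of all genes above 0 is not given. NNAT, expressed from the paternal allele in developing brain, averaged 1653 ± 410.1 CPM with hairpin 7 and 1386 ± 428 CPM with hairpin 8 in D458, against 554 ± 117 CPM in controls (log2 change 1.58 ± 0.22 and 1.32 ± 0.21, edgeR adjusted p = 4.2e-04 and 0.00126). NDN, a neuronal growth suppressor, averaged 12.1 ± 0.704 CPM with hairpin 6 and 12.8 ± 1.34 CPM with hairpin 8 in D425, against 27.7 ± 1.42 CPM in controls (-1.19 ± 0.10 and -1.11 ± 0.10, adjusted p = 5.3e-06 and 7.2e-06). Only 11 of 29 germline genes passed the filter, with 3 higher and 2 lower, 2 and 2, 0 and 3, and 1 and 2 for hairpins 6 and 8 in D425 and 7 and 8 in D458. BRDT, a testis bromodomain protein, had 4 counts with hairpin 7 and 6 with hairpin 8 over 3 libraries each in D458, against 146 counts in controls. MAGEC1, a cancer-testis antigen of a family with similar copies, was lower with hairpins 6, 8, 7 and 8 by -1.58, -1.44, -1.43 and -1.40 in log2 change (adjusted p = 0.00549, 0.00616, 0.00177 and 0.00192). Without replicate number 2 in all groups the D425 calls and the hairpin 7 call were lost (adjusted p = 0.124, 0.0766 and 0.0539).

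The limit of the filter holds here as well, since 32 of 60 developmental regulators often bound by Polycomb complexes passed it. Of these 32, 9 were higher and 2 lower with hairpin 6 and 10 and 1 with hairpin 8 in D425. In D458 6 were higher and 1 lower with hairpin 7 and 8 and 1 with hairpin 8. TBX1, a T-box factor of pharyngeal and heart development, averaged 58.1 ± 3.13 CPM with hairpin 7 and 49.96 ± 3.92 CPM with hairpin 8 in D458, against 12 ± 3.85 CPM in controls (2.28 ± 0.24 and 2.06 ± 0.24, edgeR adjusted p = 2.7e-05 and 6.1e-05). TBX3 was higher in both lines, by 0.71 ± 0.14 and 0.64 ± 0.14 with hairpins 6 and 8 in D425 and 1.22 ± 0.15 and 1.13 ± 0.14 with hairpins 7 and 8 in D458 (adjusted p = 0.00391, 0.00532, 7.9e-05 and 1.6e-04). Its D425 calls were lost without replicate number 2 in all groups (adjusted p = 0.0996 and 0.0969). SIX2, of the family that EYA proteins bind, was lower in D425 (-0.72 ± 0.11 and -0.84 ± 0.11, adjusted p = 7.2e-04 and 1.5e-04). Of 39 HOX genes 7 passed the filter, with 2 higher and 0 lower with each hairpin in D425, and 0 and 1 with hairpin 7 and 1 and 1 with hairpin 8 in D458. HOXB9 had 41 counts with hairpin 6 and 38 with hairpin 8 over 3 libraries each in D425, against 2 counts in controls, and HOXD13 fell in D458 to 2.09 ± 0.490 CPM with hairpin 7 and 2.10 ± 0.217 CPM with hairpin 8, against 5.78 ± 1.36 CPM in controls. Without replicate 1 the imprinted genes were 4 higher and 1 lower, 5 and 1, 7 and 0, and 5 and 0 in the same order of comparisons, and the developmental regulators 14 and 2, 16 and 2, 7 and 2, and 6 and 1. The share of all genes called in that setting is not given, so these counts are not set against all genes. With the replicate block they were 6 and 1, 8 and 3, 11 and 2, and 10 and 2 for imprinted genes, and 13 and 2, 14 and 2, 10 and 2, and 10 and 1 for developmental regulators.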
